A study of Mus musculus with 5 samples.

Results

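BVECTN_4A is a mouse thyroid tumor cell line labelled as carrying Braf V600E together with a deletion of Ctnnb1, the gene of β-catenin. Its RNA-seq library, at passage 11, was set against both libraries of BVE, a thyroid tumor line with Braf V600E and no Ctnnb1 deletion, at passage 20. These 3 libraries were chosen by line name from the 5 of the series. The other libraries are BVECTN_4 (passage 8, without TSH) and BVECTN_5 (passage 7), further lines labelled as Ctnnb1-deleted, and their values are given only beside those of BVECTN_4A. BVE replicate 1 was grown without and BVE replicate 2 with thyroid-stimulating hormone (TSH), the pituitary hormone that drives thyroid follicular cells. Wherever BVE values are listed, the library without TSH comes first. The labels give no TSH status for BVECTN_4A, and the protocol states medium with bovine TSH for all lines and about 25 passages for BVE and 20 for the null lines before use. All lines were grown out from dissociated thyroid tumors of donor mice and kept in culture for months. The age of the mice is not given in the sources used here. The BVECTN_4A side holds 1 library, so the differences below are described without a test. Genotype, line, passage and TSH cannot be told apart.

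β-catenin has separate roles at the membrane and in the nucleus. At adherens junctions it ties cadherins, the adhesion receptors between cells, to α-catenin and actin. In the nucleus it acts with TCF/LEF factors as the transcriptional arm of canonical Wnt signalling. Thyroid follicular cells are polarized epithelial cells whose identity rests on the transcription factors Nkx2-1, Pax8, Foxe1 and Hhex, and Braf V600E drives constant signalling through MEK and ERK.

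The estimated counts summed to 29360002 in BVECTN_4A and to 30432737 and 30713079 in the BVE libraries. A gene with no count could still hold up to 3 counts, or between 0.0977 and 0.102 CPM in these libraries, by counting error alone. Levels below are in scaled FPKM, the deposited FPKM (fragments per kilobase of transcript, scaled to the library total) summed per gene and divided by the library's TMM factor. A gene was described if 1 of the 3 libraries reached 10 counts and a scaled FPKM of 1, which held for 10944 of the 16393 genes listed in them. Genes under this level in all 3 libraries were left out, so low members of a list are missing from its counts. A gene below this level in both BVE libraries was described only where BVECTN_4A was higher, so its direction was fixed by the filter. This applies to every described gene in the following paragraphs with both BVE levels under 1, among them Pax8, Cldn1, Egr3 and Rb1. Counts of list members above BVE include such genes. The distance is the log2 difference, with 0.1 added to each value, between BVECTN_4A and the nearer BVE library. It understates low genes and is no bound where a value is near 0. The BVE libraries differed from each other by a median of 0.39 on this log2 scale, 5% of genes by more than 1.37, and 164 genes by at least 4-fold.

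Ctnnb1 was at 73.0 and 103.2 scaled FPKM in the BVE libraries and at 155.8 in BVECTN_4A, with 20510 counts against 6432 and 8043. It was at 110.1 in BVECTN_4 and 97.4 in BVECTN_5. The amount of Ctnnb1 RNA thus lay above BVE in the library labelled as deleted, by 0.59 (0.42 after the centring described below). Values per gene do not separate deleted exons from the others, so the deletion was not checked, and all directions below rest on the labels. Braf was low in all 3 libraries, at 0.32, 0.21 and 0.68.

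BVECTN_4A lay above both BVE libraries in 4502 genes (41.1% of those described) and below both in 5011 (45.8%). It lay between them in 1431. At a distance of at least 4-fold, 636 genes were above both (5.81%) and 575 below both (5.25%). In 635 of the former and 566 of the latter, the distance was also larger than the difference between the BVE libraries. Of these genes, 27 had 0 counts in both BVE libraries and 49 had 0 counts in BVECTN_4A. The scaling set the balance of directions. The median difference over all genes was -0.08 with the TMM factors and 0.63 without them, so a list median should be read against these values and a list count against the shares above.

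**Figure D1:**
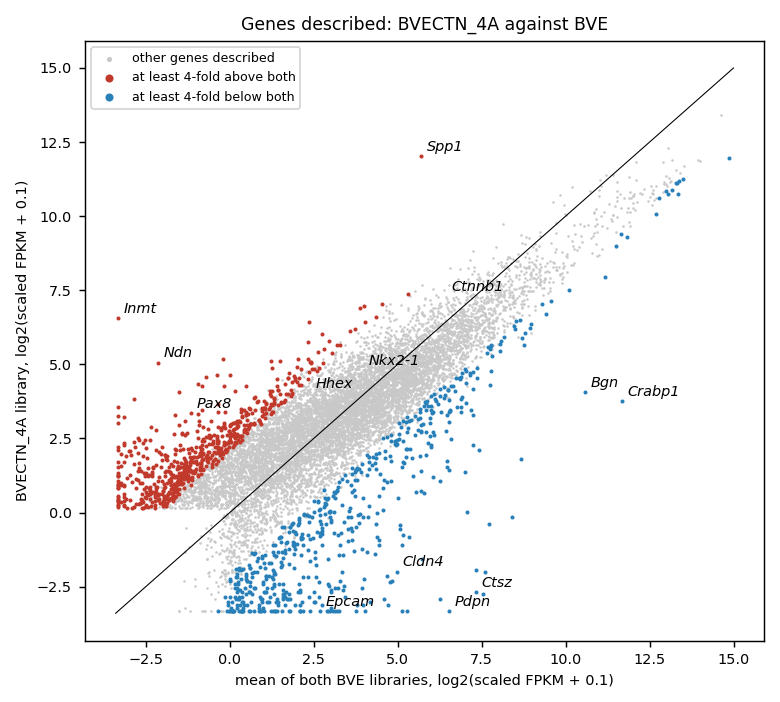
Level of every gene described in BVECTN_4A (vertical axis) against the mean of both BVE libraries (horizontal axis), both as log2(scaled FPKM + 0.1), with the line of equal levels. Red points are the 636 genes at least 4-fold above both BVE libraries and blue points the 575 at least 4-fold below both. Spp1 and Inmt lie far above the line, and Crabp1, Bgn and Pdpn far below it.

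The difference went with transcript length and GC content. When the genes were put into 5 classes of equal size by transcript length, the median difference of BVECTN_4A from the BVE mean was -0.94 in the class of the shortest, and -0.53, -0.17, 0.37 and 1.08 in the next classes up to the longest. From the lowest to the highest GC content the medians were 0.88, 0.38, -0.12, -0.57 and -0.74. Short GC-rich genes (n = 516) stood at -1.33 and long GC-poor genes (n = 517) at 1.6003. Between the BVE libraries the medians over the length classes ran only from 0.13 to -0.13. Against the BVE mean they ran from -0.78 to 0.64 in BVECTN_4 and from -0.60 to 0.64 in BVECTN_5. The dependence on length was thus not particular to BVECTN_4A. Over the GC classes the medians ran from 0.80 to -0.66 in BVECTN_5 and from -0.20 to 0.32 in BVECTN_4. The genes at least 4-fold above had a median length of 4625 bases and those at least 4-fold below 1731 bases, against 2677.5 over all genes described. What produced this dependence was not tested. For this reason a centred value is given beside the results, in which the median difference of each class of similar length and GC content was subtracted from BVECTN_4A. After centring, 322 genes (2.94%) were at least 4-fold above both BVE libraries and 408 (3.73%) below. Of these, 251 and 318 were also past 4-fold without it.

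**Figure D2:**
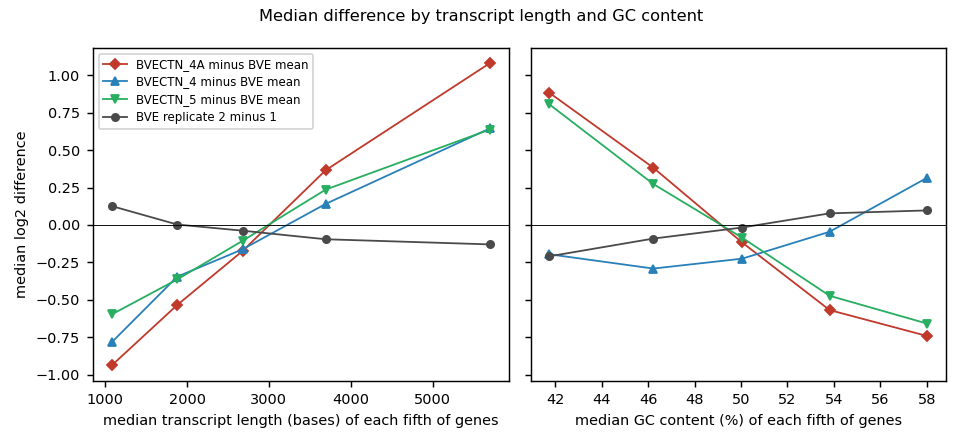
Median log2 difference (vertical axis) in 5 equal classes of the genes ordered by transcript length in bases (left) and GC content in percent (right). Red diamonds are BVECTN_4A, blue and green triangles BVECTN_4 and BVECTN_5, each against the BVE mean, and grey circles are BVE replicate 2 against replicate 1. The red line climbs from -0.94 to 1.08 with length and drops from 0.88 to -0.74 with GC content.

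The genes furthest above BVE with a scaled FPKM of at least 10 in BVECTN_4A were led by Inmt, which methylates indoleamines. Inmt had 0 counts in both BVE libraries and 3529 counts in BVECTN_4A (94.7 scaled FPKM), at least 698-fold higher when each BVE library is set to 3 counts. It had 0 counts in BVECTN_4 and 2 in BVECTN_5, so BVECTN_4A stood alone. Ndn, an imprinted gene of the MAGE family, was at 0.15 and 0.11 in BVE, 33.3 in BVECTN_4A and 7.80 in BVECTN_5, and had 0 counts in BVECTN_4. Spp1, which codes for the secreted phosphoprotein osteopontin, was at 87.7 and 30.9 in BVE and at 4156 in BVECTN_4A. That is 47.4 times the higher BVE library, and 219206 counts stood behind it. BVECTN_4 was at 329.9 and BVECTN_5 at 929.8, so every library labelled as deleted was above both BVE libraries, with BVECTN_4A the highest of the 5. Gsdme, a pore-forming gasdermin, had 0 counts in both BVE libraries and 11.7 scaled FPKM in BVECTN_4A, at least 184-fold higher. It was also present in BVECTN_4 (2.81) and BVECTN_5 (9.52). Syt13, a synaptotagmin, was at 0.04 in both BVE libraries and 14.2 in BVECTN_4A. Aldh1a1, which makes retinoic acid, was at 0.79 and 0.76 against 36.6, and the water channel gene Aqp1 at 0.91 and 0.88 against 25.1. St8sia2, a polysialyltransferase, was at 0.44 and 0.39 in BVE, 20.2 in BVECTN_4A, 0.23 in BVECTN_4 and 0.01 in BVECTN_5. Peg3, a paternally expressed zinc finger gene, was at 0.48 and 0.92 against 24.8, and at 0.77 and 0.02 in the other null lines. For these 2 genes, as for Inmt, no other library came near BVECTN_4A. The matrix proteoglycan gene Prelp (16.8), Trp53i11 (23.6) and the transporter gene Slc22a23 (19.03) made up the 12, each below 1 in both BVE libraries. Centred distances of these 12 genes lay between 3.33 for Peg3 and 11.06 for Inmt.

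The genes furthest below BVE with a scaled FPKM of at least 10 in both BVE libraries held enzymes, transporters and secreted proteins. Crabp1, the cellular retinoic acid binding protein, was at 2836 and 3787 in BVE and 13.3 in BVECTN_4A, a distance of -7.72. It was also low in BVECTN_4 (4.47) and BVECTN_5 (3.00). Vip, which codes for vasoactive intestinal peptide, was at 199.2 and 222.6 against 0.66, and below 0.1 in the other null lines. Both genes thus stood above 100 in BVE alone. Ctsz, a lysosomal cathepsin, was at 133.3 and 197.8 in BVE and at 0.06 in BVECTN_4A, where it had 3 counts. It was at 94.9 in BVECTN_4 and 179.8 in BVECTN_5, so here BVECTN_4A was apart from every other library. Pdpn, the membrane glycoprotein podoplanin, was at 122.2 and 68.7 in BVE and had 0 counts in BVECTN_4A, at least 1510-fold lower. BVECTN_5 had 77.1. Pdk4, a kinase that shuts off pyruvate dehydrogenase, was at 29.01 and 51.0 against 0 counts, at least 1256-fold lower. Slc16a3, the lactate exporter MCT4, was at 149.8 and 246.1 against 0.15. Plac8 stood at 148.4 and 176.5 against 0.16, and the prostacyclin synthase gene Ptgis at 65.6 and 90.2 against 0.03 (2 counts). H2-L, Ubb-ps and Eno1b were also among them. Each has near-identical copies in the genome among which reads may have been divided, so their values are uncertain. Centred distances of these genes lay between -6.39 for Crabp1 and -9.31 for H2-L.

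**Figure D3:**
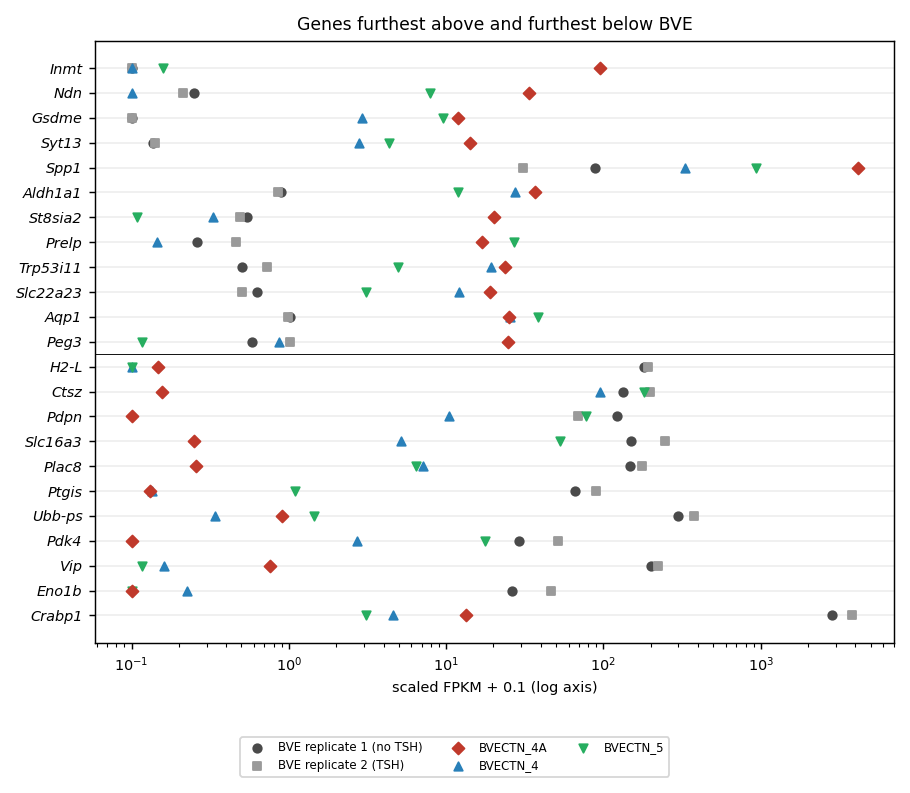
Scaled FPKM plus 0.1 on a log axis in each of the 5 libraries for the 12 genes furthest above (top) and 11 of those furthest below BVE (bottom). Each point is 1 library, with BVECTN_4A as red diamonds. The other null lines share the side of BVECTN_4A for Gsdme, Aqp1 and Crabp1 and sit with BVE for Ctsz.

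The labels call all lines thyroid epithelial cells. Of 21 thyroid follicular genes, 20 were listed in any library and 5 were described. Nkx2-1, the homeobox factor that specifies the thyroid, was at 11.3 and 21.0 in BVE and at 27.7 in BVECTN_4A. Its distance of 0.39 was smaller than the BVE difference of 0.88. Hhex, a homeobox factor of the early thyroid bud, was at 4.57 and 5.79 in BVE and at 16.1 in BVECTN_4A, a distance of 1.46 (1.95 centred). BVECTN_4 and BVECTN_5 had 0.95 and 1.14, so BVECTN_4A was the highest of the 5 libraries for Hhex. It was also the highest for Nkx2-1, which was at 8.19 in BVECTN_4 and 0.21 in BVECTN_5. Pax8, the paired box factor that pairs with Nkx2-1 at thyroid promoters, was at 0.49 and 0.24 in BVE and at 10.1 in BVECTN_4A, a distance of 4.11 (4.36 centred). BVECTN_4 had 16.04. Products of the differentiated follicle were low in all 3 libraries. Slc5a5, the sodium iodide symporter, was at 1.27 and 0.50 in BVE and 0.04 in BVECTN_4A. Tg, the hormone precursor thyroglobulin, was at 0.99 and 1.20 against 0.40. Foxe1, Dio1, Duox1, Duox2, Duoxa2, Iyd, Kcne2 and Slc26a4 had 0 counts in BVECTN_4A. The list summed to 19.7 and 29.7 scaled FPKM in BVE and 55.0 in BVECTN_4A, of which Nkx2-1 made up the largest single amount. Of the defining factors, Nkx2-1 and Hhex were thus present in all 3 libraries, Pax8 was below 1 in both BVE libraries, and Foxe1 had at most 1 count in any of the 3. Slc5a5 was the 1 member at least 4-fold below BVE, with a distance of -2.11 (-1.52 centred).

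Epithelial genes lay mostly below BVE. Of 33 listed genes 22 were described, of which 18 were below both BVE libraries and 12 at least 4-fold below (background 5.25%), while 4 were above and 1 at least 4-fold above. The median difference was -2.51 (-1.57 centred, with 9 at least 4-fold below). In bulk RNA, fewer cells of a type and less RNA per cell cannot be told apart. Epcam, an epithelial adhesion protein, was at 6.21 and 6.45 in BVE and had 0 counts in BVECTN_4A, at least 159-fold lower. Cdh1, E-cadherin, was at 2.39 and 2.27 and likewise had 0 counts, at least 126-fold lower. The tight junction claudins followed. Cldn4 was at 24.9 and 38.9 in BVE and 0.15 in BVECTN_4A. Cldn3 was at 14.7 and 16.8 against 0.11 and Cldn6 at 19.1 and 30.3 against 0.03. In BVECTN_4 these 3 claudins were at 960.5, 697.2 and 710.6, and in BVECTN_5 at 160.4, 37.8 and 18.3, so that BVECTN_4A was the lowest of the 5 libraries for each. Cldn7, Rab25 (a small GTPase of apical recycling) and the membrane protease gene St14 had at most 2 counts in BVECTN_4A. Simple keratins stayed abundant. Krt8 was at 781.6 and 1544 in BVE and 183.0 in BVECTN_4A, and Krt18, its partner in filaments, at 394.9 and 639.7 against 275.0. Their centred distances were -1.15 and 0.11. Cldn1 ran the other way, at 0.44 and 0.14 in BVE and 4.76 in BVECTN_4A. The list summed to 1425 and 2581 in BVE and 594.1 in BVECTN_4A, with Krt18 the most abundant. It summed to 14151 in BVECTN_4 and 1358 in BVECTN_5.

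The bases before the start sites are shown for Cldn6, Cldn4, Cldn3 and Epcam, chosen because they lay far below BVE. Capitals mark the E-box CAGGTG or its reverse complement CACCTG, the motif bound by zinc finger factors of the Snail and Zeb families and by other factors. RefSeq gave a promoter for 8 of the 12 epithelial genes at least 4-fold below BVE. Within 250 bases before the start, Cldn6 and Cldn4 held 1 E-box each, Epcam held 2 and Cldn3 held 0, with both strands searched. At least 1 was present in 17.2% of all 32851 RefSeq promoters in windows of the same length. The 4 genes were picked by their levels, so their share is not set against this. A match is a description of the sequence and says nothing of binding. The windows are from GRCm38.p6, on the gene's strand, 5′ to 3′, and end at the base before the start: Cldn6 at chr17:23679115-23679364 (plus strand), Cldn4 at chr5:134946935-134947184 (minus strand), Cldn3 at chr5:134985964-134986213 (plus strand) and Epcam at chr17:87635729-87635978 (plus strand).
Cldn6: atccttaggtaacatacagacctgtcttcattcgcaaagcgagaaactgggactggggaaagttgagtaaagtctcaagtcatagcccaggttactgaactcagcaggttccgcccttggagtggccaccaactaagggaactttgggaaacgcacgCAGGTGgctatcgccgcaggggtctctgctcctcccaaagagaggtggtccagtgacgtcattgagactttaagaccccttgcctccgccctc
Cldn4: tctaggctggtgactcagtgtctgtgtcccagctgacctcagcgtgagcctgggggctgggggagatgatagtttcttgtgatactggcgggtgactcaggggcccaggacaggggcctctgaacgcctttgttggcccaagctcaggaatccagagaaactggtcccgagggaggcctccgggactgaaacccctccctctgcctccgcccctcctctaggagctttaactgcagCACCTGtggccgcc
Cldn3: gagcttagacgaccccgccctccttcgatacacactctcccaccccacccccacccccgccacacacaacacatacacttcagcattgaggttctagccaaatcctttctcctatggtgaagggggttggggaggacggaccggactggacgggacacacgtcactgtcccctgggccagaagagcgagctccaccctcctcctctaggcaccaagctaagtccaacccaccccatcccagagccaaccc
Epcam: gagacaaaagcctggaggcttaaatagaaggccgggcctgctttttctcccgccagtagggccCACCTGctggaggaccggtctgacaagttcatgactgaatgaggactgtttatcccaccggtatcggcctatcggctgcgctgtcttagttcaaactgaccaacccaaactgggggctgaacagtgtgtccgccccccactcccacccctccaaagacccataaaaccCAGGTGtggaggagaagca

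Transcription factors of epithelial to mesenchymal transition went in both directions. Of 10 genes 9 were described, 5 above and 3 below both BVE libraries. Their median difference of 1.62 came down to 0.35 after centring and to 0.07 among genes of at least 5 scaled FPKM. Foxc2, a forkhead factor of mesenchyme, was at 0.53 and 0.15 in BVE and 8.42 in BVECTN_4A (distance 3.76, centred 4.35). Zeb2 was at 0.32 and 0.15 against 1.62, Zeb1 at 2.09 and 1.95 against 6.42, and Snai2 at 0.27 and 0.04 against 1.35. Foxc2, Zeb2 and Snai2 were described only through BVECTN_4A, so their direction was fixed by the filter. The Zeb distances of 2.03 and 1.57 came down to 0.43 and 0.30 after centring. Snai1, the founding Snail repressor, was lower, at 29.1 and 44.5 against 3.07 (centred distance -2.26). Twist1 and Twist2 were abundant in all 3 libraries, at 24.1 and 21.8 in BVECTN_4A. The list summed to 120.8 and 143.6 in BVE and 83.5 in BVECTN_4A, where Twist1 was the most abundant.

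**Figure D4:**
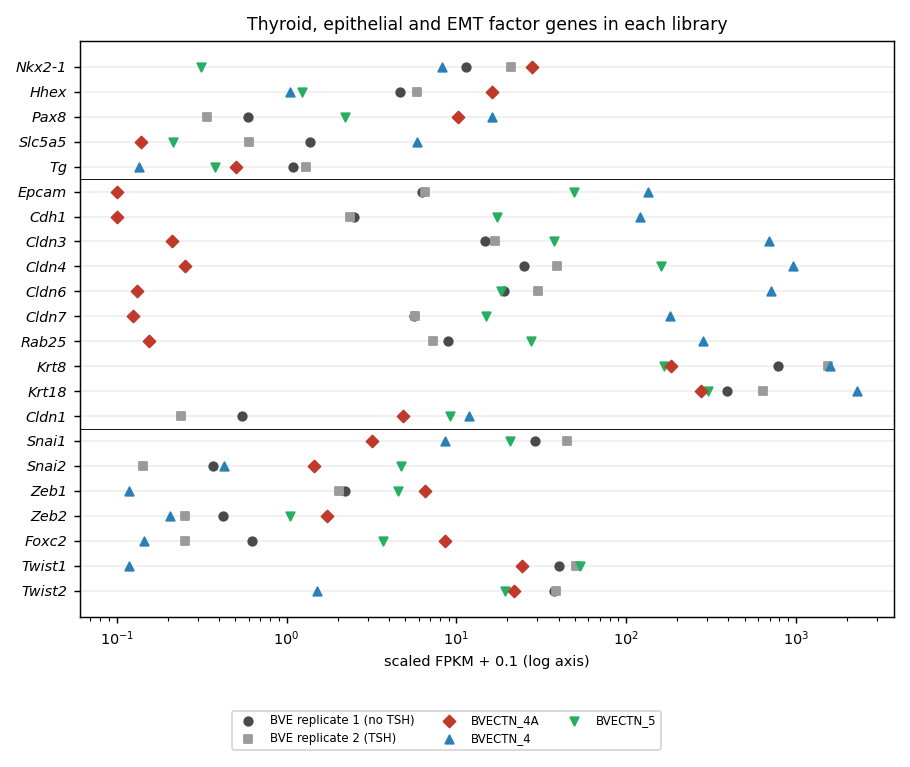
Scaled FPKM plus 0.1 on a log axis in each of the 5 libraries for thyroid genes (top), epithelial genes (middle) and transcription factors of epithelial to mesenchymal transition (bottom). Each point is 1 library, with BVECTN_4A as red diamonds. BVECTN_4A is the highest library for Nkx2-1 and Hhex and the lowest for Epcam, Cdh1 and Cldn3, Cldn4, Cldn6 and Cldn7.

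Among 17 cadherin and catenin genes 10 were described, 4 above and 3 below BVE. Cdh3, P-cadherin, was at 8.60 and 8.72 in BVE and 0.07 in BVECTN_4A, so that both classical epithelial cadherins were at or near 0. Cdh2, N-cadherin, was at 5.68 and 5.44 against 13.0, with a centred distance of 0.14. Jup, plakoglobin, the close relative of β-catenin, was at 5.27 and 9.39 against 17.7 (centred distance 0.58). Ctnna1, α-catenin, was at 188.0 and 256.0 against 204.0, between the BVE libraries. The median difference of the list was -0.01, and it was above 0 without the TMM factors (0.71) or with BVE with TSH left out (0.51). It was -0.49 after centring and -0.37 with BVE without TSH left out, with 4 above and 6 below in both cases.

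Markers of other cell types were read in the same libraries, and their part in the results above was not tested. Of 20 fibroblast genes 11 were described, 3 above and 7 below BVE, 3 of the latter at least 4-fold. The list summed to 534.6 and 548.9 in BVE and 253.3 in BVECTN_4A, led there by Fbln2 (84.6), and Fap, Lum, Dpt and Tcf21 had 0 counts. Of 10 smooth muscle and pericyte genes 6 were described and 5 were above BVE, with Acta2, smooth muscle actin, at 100.9 and 99.8 against 152.3. Tagln was at 4.02 and 2.51 against 13.2 and Mcam at 2.35 and 1.96 against 11.1. Rgs5 had 0 counts in both BVE libraries and 74 counts in BVECTN_4A (1.10 scaled FPKM). Lmod1 was at 0 and 0.07 against 3.70, while Des, desmin, was at 2.03 and 2.06 against 0.07 and Myh11 had 0 counts. This list summed to 110.3 and 107.3 in BVE and 182.1 in BVECTN_4A. None of 11 endothelial genes was described, and they summed to 0.11 in BVECTN_4A, where Cldn5, Erg, Sox17 and Vwf had 0 counts. Of 14 immune genes only Cd68, a lysosomal protein, was described, at 7.50 and 19.9 against 0.79. Ptprc, Cd3d, Cd3e, Adgre1, Fcer1g, Ncr1 and Tyrobp had 0 counts in BVECTN_4A, and the list summed to 8.91 and 21.0 in BVE and 1.01 in BVECTN_4A. Of 8 C cell and neuroendocrine genes 2 were described, Syp (2.55 and 2.20 against 0.09) and Calcb (0.34 and 0.81 against 1.06), and the list summed to 3.92, 3.88 and 1.41. Of 8 skeletal muscle genes only Acta1 was described, at 0.34 in BVECTN_4A, between the BVE libraries, and Myod1, Myog and Ttn had 0 counts.

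Wnt target and pathway genes did not share a direction. Of 23 targets and TCF/LEF genes 13 were described, 8 above and 4 below BVE, with 3 and 2 at least 4-fold. The feedback inhibitor Axin2 was at 1.20 and 2.07 in BVE, 0.07 in BVECTN_4A and 0.67 in BVECTN_5, with 0 counts in BVECTN_4. Nkd1, another negative feedback gene, was at 2.44 and 1.30 against 0.03. Lef1, a nuclear partner of β-catenin, had 0 counts in both BVE libraries and 2.28 scaled FPKM in BVECTN_4A, at least 53.2-fold higher, and was at 1.71 and 1.27 in the other null lines. Tcf7l1 was at 0.14 and 0.06 against 1.70. Lgr6, a receptor for R-spondins, was at 0.06 and 0.08 in BVE, 5.38 in BVECTN_4A and 21.1 in BVECTN_4. Ccnd1, cyclin D1, was at 484.5 and 349.5 against 660.5, and Myc at 42.5 and 18.1 against 33.2, between the BVE libraries. Lef1, Tcf7l1 and Lgr6, the 3 at least 4-fold above, were described only through BVECTN_4A, so their direction was fixed by the filter. Centred distances were -2.73 for Axin2, -3.23 for Nkd1, 3.96 for Lef1, 3.52 for Tcf7l1 and 5.08 for Lgr6.
Of 42 Wnt ligand, receptor and antagonist genes 20 were described, 10 above and 10 below, with 2 and 5 at least 4-fold. The secreted antagonist Dkk2 was at 16.3 and 15.04 in BVE and 0.80 in BVECTN_4A, and Dkk3 at 39.5 and 66.4 against 6.40. Both were lower still in BVECTN_5, at 0.17 and 0.13. Ligands split as well. Wnt10a was at 1.42 and 1.37 against 0 counts and Wnt7a at 5.64 and 8.98 against 1.12, whereas Wnt7b was at 19.4 and 13.3 against 85.8. The median difference of 0.33 turned to -0.13 after centring.

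Extracellular matrix genes were divided too. Of 30 collagens 20 were described, 8 above and 10 below BVE, with 2 and 5 at least 4-fold. The 2 at least 4-fold above were Col11a1 and Col4a3. Both were described only through BVECTN_4A, so their direction was fixed by the filter. Col3a1 was at 86.6 and 108.5 in BVE and 5.54 in BVECTN_4A. Col1a2 was at 60.8 and 71.5 against 10.5, Col6a1 at 123.0 and 183.0 against 17.7, and Col6a2 at 65.2 and 88.1 against 1.99. All 4 stayed at least 4-fold below after centring, with distances between -2.55 and -4.78. Of the collagen IV genes, Col4a1 was at 32.5 and 43.1 against 46.2, and Col4a3 at 0.73 and 0.69 against 3.91 (distance 2.28, centred 1.24). The median difference was -0.31, and 0.40 without the TMM factors. After centring it was -0.94, with 3 above and 12 below, and 0 at least 4-fold above.
Of 27 matrix glycoprotein and crosslinking genes 24 were described, 11 above and 12 below, with 5 and 3 at least 4-fold. Bgn, the small proteoglycan biglycan, was at 1513 and 1570.0 in BVE, 16.6 in BVECTN_4A, 0.35 in BVECTN_4 and 875.5 in BVECTN_5. Thbs1, thrombospondin-1, was at 3.47 and 7.18 against 86.7, and it was at 34.6 and 90.5 in the other null lines. Tgfbi was at 1.64 and 4.39 against 34.9 and Tnc, tenascin-C, at 0.23 and 0.35 against 2.78. Thbs2 went against Thbs1, at 1.29 and 1.06 in BVE and 0.04 in BVECTN_4A. The list's median of -0.01 became 0.72 without the TMM factors, so it gives no direction.
Of 32 integrin and laminin genes 20 were described, 11 above and 8 below, with 4 and 5 at least 4-fold. Laminin chains of epithelial anchoring were far below BVE. Lamb3 was at 8.23 and 8.93 against 0.52, and Lama3 at 1.24 and 0.60 against 0.02. Itgb3, the β3 chain of an osteopontin receptor, was at 0.11 and 0.18 against 3.84, and its partner Itgav at 5.46 and 4.37 against 22.6. Itga6 was at 7.28 and 4.98 against 42.3. The centred distances were 3.14 for Itgb3, 2.34 for Itga6 and 0.43 for Itgav.
Of 29 matrix protease and inhibitor genes 22 were described, 9 above and 12 below, with 2 and 5 at least 4-fold. Mmp23 was at 10.2 and 26.0 in BVE and had 0 counts in BVECTN_4A, at least 180-fold lower. Mmp9, a gelatinase, was at 2.18 and 2.77 against 0.13, and Adamts2, which trims procollagen, at 7.10 and 8.42 against 0.91. Serpine2, a serine protease inhibitor, was at 5.79 and 7.68 against 64.2 (centred distance 3.16). The median of -0.23 became 0.49 without the TMM factors and -0.30 after centring.
Of 21 keratin and intermediate filament genes 11 were described, 3 above and 6 below. Vim, vimentin, was at 1821 and 4767 in BVE and 2274 in BVECTN_4A, between the BVE libraries, and was far lower in BVECTN_4, at 75.2. Krt20 was at 2.75 and 2.81 against 13.0. This median, -0.57, changed sign after centring (0.28) and without the TMM factors (0.16).

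ERK output genes are transcripts that follow MEK and ERK activity. Of 26 genes 25 were described, 13 above and 3 below both BVE libraries, with 6 and 0 at least 4-fold (backgrounds 5.81% and 5.25%). The BVE libraries themselves differed for this list, with a median of -1.14 for the library with TSH against that without. Its median difference in BVECTN_4A was 0.97, and it was 1.52 against BVE with TSH alone (22 above and 3 below) and 0.48 against BVE without TSH alone (13 above and 12 below). Egr3, an immediate early factor, had 2 and 0 counts in BVE and 4.10 scaled FPKM in BVECTN_4A. Spry4, which restrains receptor signalling to RAS, was at 1.63 and 0.38 against 10.4, and Spred1 and Spred2 were at 22.9 and 15.9 against at most 4.07. Dusp2, a MAP kinase phosphatase, was at 1.48 and 0.62 against 6.81. Hmga2, a chromatin protein, was at 29.8 and 8.34 against 125.8. Its relative Hmga1, the most abundant member in BVECTN_4A, lay below BVE, at 1343 and 1065 against 504.3. The list summed to 2457 and 1750 in BVE and 1418 in BVECTN_4A. The classical readouts Dusp6 (85.3 and 19.7 against 56.8), Etv4 (76.2 and 40.8 against 43.5) and Fosl1 (86.0 and 20.5 against 40.1) lay between the BVE libraries. After centring 16 were above and 3 below, 3 of the former at least 4-fold. Spry4 and Hmga2 were then no longer 4-fold above, at centred distances of 1.57 and 1.46. Egr3 and Dusp2 stayed so, at 5.57 and 3.07.
Of 14 RAS, RAF, MEK and ERK genes 12 were described, 6 above and 5 below. Rasa1 and Nf1, GTPase activators that switch RAS off, were at 8.50 and 1.80 in BVECTN_4A against at most 0.84 and 0.36 in BVE. Both were described only through BVECTN_4A, so their direction was fixed by the filter. Their distances of 3.20 and 2.06 came down to 1.597 and 0.78 after centring. Map2k2, the kinase MEK2, was at 118.9 and 110.5 against 60.8. The list's median of 0.04 became -0.18 after centring.
Of 27 growth factor receptors 16 were described, 9 above and 4 below. Fgfr1 was at 9.87 and 10.9 against 29.4, Met at 1.84 and 1.61 against 6.19 and Igf1r at 1.87 and 1.72 against 6.78, all long transcripts whose centred distances were 0.76, 0.43 and 0.76. Egfr was lower, at 8.41 and 7.52 against 2.78.

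Proliferation genes lay above or between the BVE libraries. All 25 were described, 16 above both BVE libraries (background 41.1%) and 0 below, with 2 at least 4-fold, near the background of 5.81%. Here too the BVE libraries differed, by a median of 1.54 in favour of the library with TSH. Against BVE without TSH alone, all 25 were above (median 2.01), and against BVE with TSH alone 16 were above and 9 below (median 0.27). Pcna, the replication clamp, was at 22.3 and 32.3 against 107.0. Ccne2, cyclin E2, was at 0.28 in both BVE libraries against 4.37, and Foxm1, a mitotic transcription factor, at 1.55 and 4.00 against 13.9. Top2a was at 3.35 and 7.82 against 33.3, with a centred distance of 0.48. Birc5 (33.9 and 138.5 against 83.8) and Tk1 (50.8 and 142.4 against 53.5) lay between the BVE libraries.
Of 21 cell cycle brakes and p53 target genes 20 were described, 11 above and 8 below, with 4 and 0 at least 4-fold. Rb1, the retinoblastoma gene, was at 0.28 and 0.29 against 2.41, Ccng1 at 23.4 and 17.8 against 97.5 and Pmaip1, the BH3-only protein Noxa, at 0.79 and 0.43 against 3.76. Cdkn2a was at 6.58 and 8.44 in BVE and 2.31 in BVECTN_4A, against 94.97 in BVECTN_4 and 637.5 in BVECTN_5. Trp53 was at 131.7 and 95.4 against 148.0. After centring, the 4 genes at least 4-fold above (Rb1, Ccng1, Pmaip1 and Trp53inp1) had distances between 0.90 and 1.46. Cdkn2c, an inhibitor of CDK4 and CDK6 at 3.52 and 3.15 against 10.9, was then the 1 member at least 4-fold above (2.92, and 1.596 without centring). Among genes of at least 5 scaled FPKM the median difference was -0.30, not 0.54, and it was 0.41 after centring.

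Hypoxia and glycolysis genes lay below BVE with few exceptions. All 29 were described, 27 below both BVE libraries (background 45.8%) and 2 above, with 6 at least 4-fold below (background 5.25%). The median difference was -1.85, and -1.40 after centring, with 26 below and 8 at least 4-fold below (background 3.73%). The BVE libraries differed by a median of 1.07, with higher levels with TSH, and 17 were at least 4-fold below BVE with TSH alone. Slc16a3 has been given above. Car9, a carbonic anhydrase induced in hypoxia, was at 21.99 and 54.6 in BVE, 0.37 in BVECTN_4A, 0.34 in BVECTN_4 and 0.12 in BVECTN_5. Eno2, an enolase, was at 40.3 and 110.3 against 2.18, and Adm, adrenomedullin, at 18.6 and 55.7 against 1.32. Both BVE libraries were above every null library for Car9 and Eno2. Glycolytic enzymes differed among themselves. Aldoc, an aldolase, was at 6.30 and 31.7 against 0.68 (centred distance -2.54). Pgk1 was at 1898 and 4459 against 493.6, and Ldha at 1891 and 3958 against 1056, with centred distances of -1.45 and -0.35. Slc2a3, a glucose transporter, was at 0.505 and 1.05 against 4.26, and Hk2 at 4.61 and 5.09 against 11.2. The distance of Hk2, 1.13, came down to 0.09 after centring.

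The study compared these lines for ligands of natural killer cells, and the genes were described with that question. Of 9 NKG2D ligand genes, which code for stress ligands of an activating receptor, all 9 were listed in at least 1 library and 4 were described, all above BVE (background 41.1%). Raet1d had 0 counts in both BVE libraries and 214 counts in BVECTN_4A (4.53 scaled FPKM), at least 42.3-fold higher, with 2 counts in BVECTN_4 and 5 in BVECTN_5. It was described only through BVECTN_4A, so its direction was fixed by the filter. Ulbp1 was at 0.91 and 2.18 against 8.12, Raet1a at 1.11 and 0.83 against 2.52, and Raet1e at 9.57 and 9.04 against 14.7. In BVECTN_4 and BVECTN_5 Raet1e was at 2.07 and 2.93, below BVE. The 9 genes summed to 11.6 and 12.1 in BVE and 31.9 in BVECTN_4A. In BVECTN_4 and BVECTN_5 the sums were 8.69 and 7.93, also below BVE. The Raet1 genes are near-identical copies among which reads may have been divided, so single members are uncertain.
All 5 classical and named class I genes were below BVE, 3 at least 4-fold, where the backgrounds for this and the next 4 lists are 45.8% below at any distance and 5.25% at least 4-fold below. The class I genes had a median of -2.60 (-1.66 centred). After centring 2 of them, H2-K2 and H2-L, were at least 4-fold below. H2-D1 was at 499.4 and 497.1 against 81.9, H2-K1 at 193.1 and 230.7 against 62.5, and B2m, the shared light chain, at 705.6 and 1255 against 443.7. H2-K2 (4.04 and 8.20) and H2-L (179.7 and 193.0) had 1 and 2 counts in BVECTN_4A. In BVECTN_4 and BVECTN_5, H2-K2 had 12 and 21 counts, and H2-L had 0 counts in both. For H2-L, BVE thus stood apart from every null line, and what set it apart was not tested. Of 17 nonclassical genes 10 were described and 9 were below BVE, 4 at least 4-fold, among them H2-T10 at 20.9 and 19.6 against 0.66. These families also share near-identical sequence.
Of 14 peptide loading genes 13 were described, 10 below and 1 above, with 4 at least 4-fold below. Tap2, a chain of the peptide transporter, was at 11.1 and 15.8 against 1.36. The immunoproteasome subunits Psmb9 (3.68 and 15.3 against 0.24) and Psmb8 (3.65 and 11.9 against 0.56) were below too. After centring 7 were below and 2 at least 4-fold below.
Of 27 interferon-stimulated genes 19 were described, 16 below and 3 above, with 4 at least 4-fold below, and 1 after centring. Irf1, an interferon regulatory factor, was at 43.8 and 74.8 against 6.47, and Irf7 at 6.80 and 10.3 against 1.37.
Of 28 chemokines and cytokines 15 were described, 9 below and 2 above, with 7 at least 4-fold below (6 centred). Cxcl14 was at 416.1 and 400.5 in BVE and 3.36 in BVECTN_4A, with 3 counts in BVECTN_4 and 0 in BVECTN_5. Ccl2, a monocyte chemoattractant, was at 61.9 and 64.2 against 4.78, Ccl7 at 12.1 and 8.70 against 0.06, and Cxcl5, which draws neutrophils, at 14.3 and 16.4 against 0.33. Cxcl5 was at 168.7 in BVECTN_4 and Ccl7 at 162.4 in BVECTN_5. Csf2, the factor GM-CSF, was at 5.62 and 1.43 against 21.99.
Of 21 surface ligands of natural killer and T cells 13 were described, 5 above and 7 below. Tnfsf9, the ligand of 4-1BB, was at 69.9 and 55.8 against 5.90, and the adhesion ligand Icam1 at 0.52 and 0.74 against 2.78. Nectin3 was at 6.31 and 4.51 against 22.4. The median of -0.17 became 0.49 without the TMM factors and -0.49 after centring.

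**Figure D5:**
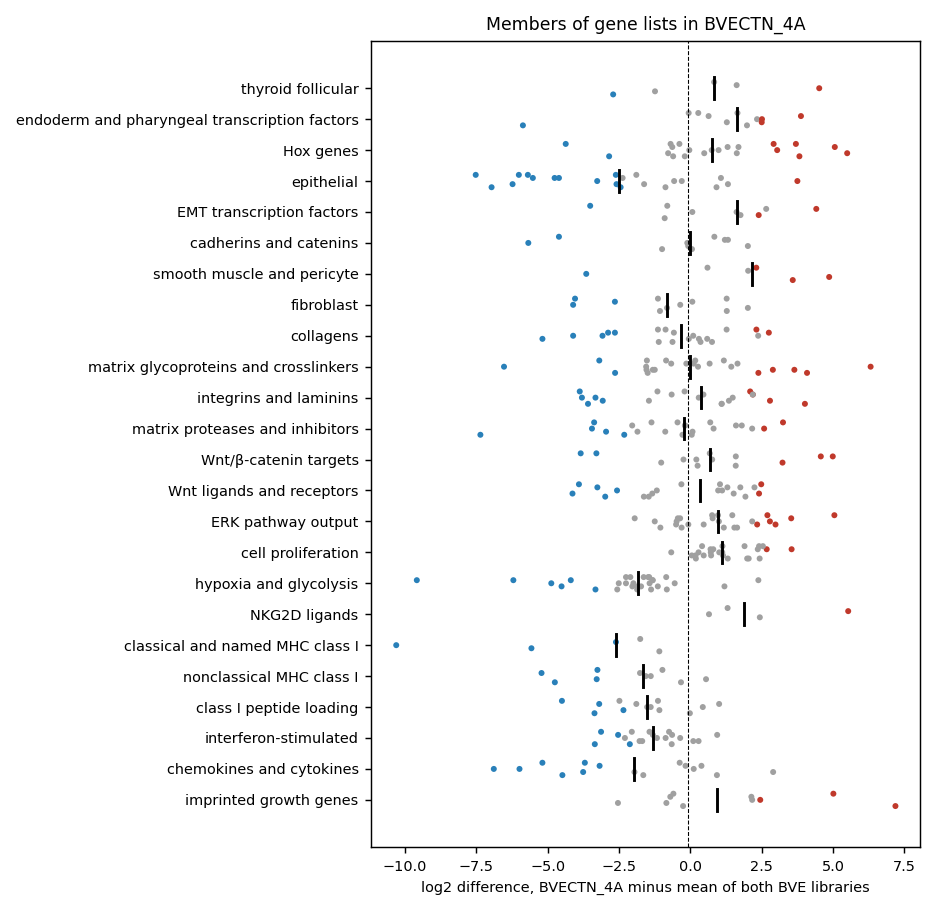
Log2 difference of BVECTN_4A from the mean of both BVE libraries (horizontal axis) for the described members of 24 gene lists (rows). Each point is a gene, red if at least 4-fold above both BVE libraries and blue if at least 4-fold below. Black bars are list medians and the dashed line is the median of all genes described, -0.08. The medians of the class I, interferon, chemokine, glycolysis and epithelial lists lie to its left and that of proliferation genes to its right.

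Transcription factors of position and of the foregut included several that were near 0 in BVE. Of 39 Hox genes, which set position along the body axis, 21 were described, 12 above and 7 below, with 6 and 2 at least 4-fold (8 and 1 centred). All 6 above (Hoxa7, Hoxa10, Hoxc5, Hoxc6, Hoxc9 and Hoxc10) were below 1 in both BVE libraries and were described only through BVECTN_4A, so their direction was fixed by the filter. Hoxc6 had 1 and 0 counts in BVE and 290 counts in BVECTN_4A (4.94 scaled FPKM), with 10 counts in BVECTN_4 and 0 in BVECTN_5. Hoxa10 had 0 and 3 counts against 330. Hoxc9 was at 0.10 and 0.11 against 2.80. Hoxc5 was at 0.55 and 0.95 in BVE, 6.74 in BVECTN_4A and below 0.01 in both other null lines. Hoxb13, the most posterior gene of its cluster, was at 6.20 and 5.58 against 0.19 and Hoxb9 at 24.8 and 11.6 against 2.28. Hoxc4 was at 7.75 and 10.6 against 29.5, and Hoxb6 at 14.97 and 14.8 against 37.0. The median difference of 0.75 was -0.11 among genes of at least 5 scaled FPKM, 1.52 after centring (16 above and 4 below) and 1.47 without the TMM factors.
Of 29 endoderm and pharyngeal factors 11 were described, 9 above and 1 below, with 3 and 1 at least 4-fold. Sox2 was at 0.18 and 0.14 against 3.74 and had 0 counts in the other null lines. Tbx3 was at 1.55 and 2.37 against 11.3, and Pax9, a factor of the pharyngeal pouches, at 2.85 and 2.25 against 10.3. Gata4 was at 7.19 and 6.14 in BVE and had 2 counts in BVECTN_4A.

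Of 22 imprinted growth genes 10 were described, 5 above and 5 below, with 3 and 0 at least 4-fold, namely Ndn, Peg3 and Mest (0.65 and 0.76 against 4.29). These 3 were described only through BVECTN_4A, so their direction was fixed by the filter. Of 10 sex-linked genes 4 were described, all above BVE, led by Kdm6a at 0.37 and 0.35 against 3.50. The direction of Kdm6a was likewise fixed by the filter. After centring 1 was above and 1 below, and the median moved from 1.30 to -0.03.
Of 29 TGF-β and BMP genes 25 were described, 17 above and 7 below, with 3 and 1 at least 4-fold. Inhbb, an activin subunit, was at 0.33 and 0.14 against 9.73. Tgfbr1, the type I receptor, was at 0.10 and 0.28 against 3.33, and Id2, a BMP target, at 1.20 and 1.69 against 7.82. Inhbb and Tgfbr1 were described only through BVECTN_4A, so their direction was fixed by the filter. After centring 17 were above and 6 below, and the 3 at least 4-fold above were Inhbb (4.74), Id2 (2.75) and Bmp2 (2.11, and 1.93 without centring), while Tgfbr1 came down to 1.58. Bmp7 was at 3.03 and 4.21 against 0.40.
Of 18 YAP/TAZ genes and targets all 18 were described, 9 above and 6 below, with 2 and 0 at least 4-fold. Yap1 was at 8.32 and 8.22 against 32.2, and its partner Tead1 at 1.61 and 0.87 against 9.33, while Ankrd1, a classical target, was at 401.0 and 209.6 against 165.6. No member was 4-fold outside after centring.
Of 19 NRF2 targets and metallothioneins 17 were described, 5 above and 8 below, with 1 at least 4-fold in each direction. Mt2 was at 48.0 and 175.4 against 8.15 and Mt3 at 1.58 and 1.497 against 7.92. The glutamate cysteine ligase subunits Gclc and Gclm were at 12.3 and 30.1 against at most 4.26 and 12.6. The median of -0.48 changed sign after centring (0.40) and without the TMM factors (0.25).

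In the RefSeq gene order, 5 runs of at least 4 described neighbours were all at least 4-fold on the same side. The runs rest on distances that were not centred for length and GC content. Above BVE these were Fgf13, Fmr1, Aff2 and Ids; Hoxc10, Hoxc9, Hoxc6 and Hoxc5; and Pcdhb17, Pcdhb20, Pcdhga1 and Pcdhga5. The Hoxc genes of these runs passed the filter only through BVECTN_4A, so their side was fixed by it. Below BVE the runs were H2-Bl, H2-T-ps, H2-T10 and Gm8909, and Rnu3b1, Rnu3b3, Rnu3b2 and Septin4. The class I genes and the U3 RNA genes of the last 2 runs are copies of each other, so their reads cannot be assigned with certainty.

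Over the 11961 genes described in any of the 5 libraries, BVECTN_4A was at least 4-fold above all 4 others in 99 and below all 4 in 178. For BVECTN_4 these counts were 530 and 233 and for BVECTN_5 283 and 67. A BVE library was at least 4-fold outside the 3 null lines in 142 and 181 genes without TSH and in 195 and 215 with TSH. Genes that set BVECTN_4A apart from every other library included, besides those above, Fhl1, a LIM protein of muscle (18.1 and 11.8 in BVE against 120.5, with 0.97 in BVECTN_4 and 14.9 in BVECTN_5). Vcl, vinculin, was at 41.3 and 37.4 against 166.3, and at 21.9 and 39.7 in the other null lines, but its distance of 2.01 became 0.97 after centring. Tfrc, the transferrin receptor, was at 2.00 and 1.46 against 13.4, and at 1.17 and 2.89 in the others, and its distance of 2.68 became 1.08 after centring. On the low side, Lcn2, the siderophore-binding lipocalin, was at 149.4 and 117.5 in BVE, 298.5 in BVECTN_4 and 905.2 in BVECTN_5, and at 0.91 in BVECTN_4A. Wfdc2 was at 50.5 and 54.9, 1685 and 185.5 against 0.24. C3, the central complement component, was at 18.8 and 21.0, 51.7 and 65.2 against 0.28. For each of these 3 secreted products BVECTN_4A was the only library under 1.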

How the data were processed

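Total RNA of 5 mouse thyroid tumor cell line cultures was sequenced after TruSeq library preparation on a HiSeq 4000. For each library the authors deposited 1 estimated count and 1 FPKM value per RefSeq transcript, listed from an FPKM of 0.01 upward. Estimated counts need not be whole, since reads shared by transcripts are divided by a model. FPKM is scaled to transcript length and library total. The aligner, the counting program and the genome build are not given in the sources used here, so no coordinates of measured genes are printed.

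Both values were summed per NCBI gene number. Of 17923 genes, 17871 were named from the RefSeq table of GRCm38.p6 or, for 5 genes, by hand. TMM factors came from edgeR 4.0.16 (R 4.3.3) on rounded estimated counts of all 5 libraries. Totals lay between 29360002 and 30713079. Further steps used Python 3.11.15 and pandas 2.3.3. A gene at 0 counts was set to 3 counts for a lower bound of its fold.

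Called genes lay at least 4-fold outside both BVE libraries, without a test. Named genes were Nkx2-1, Hhex, Ctnnb1 and Braf, the 12 furthest outside in each direction at a scaled FPKM of at least 10 and up to 4 members of each of 37 lists. Some genes that this rule names are not reported here. Further members and the genes that set BVECTN_4A apart were named after their values were seen. The comparison, its markers and the lists were chosen with earlier results of these data known. GC content was available for 97.8% of the genes described, and the others were centred by the class of their length alone. Alternatives were other scalings, CPM, pseudocounts of 0.01 and 1, filters, folds of 2 and 8, leaving out a BVE library, and edgeR and DESeq2 1.42.0 tests of the counts. Centring by length and GC content was added after the data were seen.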

Additional observations from a re-analysis of the deposited data

Results flagged for a closer look

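Among lists with at least 5 genes described, 2 had medians of at least 1 in size and opposite sign in BVECTN_4A and another null line. Medians of other lists, such as the thyroid and Hox genes, also differed in sign, but in these at least 1 of the medians compared was below 1 in size. For epithelial genes the median log2 difference from the BVE mean was -2.51 in BVECTN_4A, 4.82 in BVECTN_4 and 1.33 in BVECTN_5. Transcription factors of epithelial to mesenchymal transition had a median of 1.62 in BVECTN_4A and -2.13 in BVECTN_4. Among these, Foxc2, Zeb2 and Snai2 were described only through BVECTN_4A, so their direction was fixed by the filter. The BVECTN_4A median was 0.07 among the factors of at least 5 scaled FPKM. After centring for length and GC content the BVECTN_4A medians were -1.57 for the epithelial genes and 0.35 for the transcription factors, so the latter was mostly lost. Each line is 1 library and all are compared with the same BVE libraries, so the differences between lines were not tested. Zeb1 was at 6.42 scaled FPKM in BVECTN_4A and 0.02 in BVECTN_4, and Epcam had 0 counts in BVECTN_4A and 9414 in BVECTN_4.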

How the results depend on the processing

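The counts of genes at least 4-fold outside both BVE libraries (636 above, 575 below) were 1436 and 318 without the TMM factors, and any distance gave 6754 above and 2781 below. With 1 added to the FPKM they were 150 and 278. A limit of 5 scaled FPKM gave 247 and 378, with 2650 above at any distance, and no filter on low values gave 6926 above at any distance. At least 2-fold, 2018 and 2018 genes were outside, and at least 8-fold 166 and 234. Leaving out a BVE library gave between 852 and 1038 above and between 750 and 880 below, the higher counts without BVE replicate 1 (1038 and 880). With centring within length and GC classes, 322 were above. The edgeR quasi-likelihood test called 2090 above and 1451 below and DESeq2 1669 and 1644 at an adjusted p under 0.05 over 13137 genes, with the spread taken from the BVE pair alone and the BVECTN_4A library assumed to vary like it. That pair differs in TSH, and no result of the report rests on these calls. DESeq2's size factors, CPM and a pseudocount of 0.01 left all 4 counts within 1.5 times. The causes were not tested. Of 152 named genes, distances moved by more than the BVE spread in 116 after centring, 113 without the TMM factors, 106 with a pseudocount of 1, 103 without BVE replicate 1, 66 with a pseudocount of 0.01, 54 without BVE replicate 2 and 53 with CPM. No paired analysis was possible because BVECTN_4A is 1 library and the labels pair it with neither BVE library.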
